A study of Mus musculus with 4 samples.

Results

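The genes described here are the colony-stimulating factors and their receptors, 8 of the 37681 genes in each count table, chosen by symbol. They are the ligand genes Csf1, Csf2 and Csf3 and the receptor genes Csf1r, Csf2ra, Csf2rb, Csf2rb2 and Csf3r. Transcripts were measured by mRNA sequencing, with 50 bp reads, in 4 libraries of bone marrow cells from wild-type C57BL/6 mice. The medium of all 4 cultures held L929 supernatant at 20% and serum at 10%; such supernatant contains M-CSF, so the CSF1 receptor had its ligand from outside in each group. The groups were cells without shRNA left unstimulated, cells without shRNA given Pam3Cys4, cells with an shRNA against lncRNA-COX2 left unstimulated, and cells with that shRNA given Pam3Cys4. Pam3Cys4 is a synthetic lipopeptide that TLR2 and TLR1 sense together; it was used at 100 nM, and the titles of the stimulated libraries read 5h. The letters EV stand in both titles of the groups without shRNA and are not explained, so whether those cells held a control vector is not known. The sources used here do not give how the shRNA was delivered, the age and sex of the mice or whether animals were pooled, and the level of the targeted RNA was not analysed here.

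Where 4 values are given, they are in the order of these groups. Each group had 1 library, so no difference below was checked against replicate cultures. A ratio is between library-scaled counts of 2 libraries, and its 95% interval covers counting error only. The libraries held 47385277 to 65826838 gene reads. Macrophage markers were abundant as a sum in all of them, at 6784 to 10020 CPM (the read count per scaled library size) for 16 genes. That sum includes Csf1r, a gene described here, at 2594, 1987, 2207 and 2078 CPM. Not every marker was abundant: Cd163 and Marco were at or below 0.178 and 0.565 CPM. Mrc1 was at 89.8, 50.5, 5.15 and 3.17 CPM, Mertk at 4.91, 1.09, 38.8 and 8.02 CPM, and Aif1 at 2.11, 2.34, 3.77 and 5.12 CPM. Many markers of other cells had few or no reads, but some were present. Lymphocyte markers (12 genes) summed to 0.376 to 1.41 CPM, and erythroid and megakaryocyte markers (7 of 8 genes matched) to 0.547 to 3.999 CPM. Mast cell and basophil markers (9 genes) summed to 0.710 to 16.7 CPM, nearly all Hdc, with Kit and Fcer1a at 0 reads throughout. Fibroblast and endothelial markers (10 genes), whose cells can make CSF proteins, summed to 6.60 to 17.3 CPM, of which Kdr made 3.76 to 13.6 CPM. The endothelial marker Cdh5 was at 2.17, 2.73, 1.82 and 3.22 CPM, while the fibroblast markers Col1a2, Col3a1 and Pdgfra had 0 reads in each library. Granulocyte markers (15 genes) summed to 27.9 to 180 CPM, mostly Mmp9, and dendritic cell markers (10 genes) to 69.2 to 130 CPM, mostly Tcf4. The libraries with and without shRNA stood apart in other ways. Ddx3y, Kdm5d and Uty, genes of the Y chromosome, had 4 reads in unstimulated and 5 in stimulated cells lacking the shRNA, but 1971 and 2115 in those that had it. A list of 16 interferon-stimulated genes summed to 92.3 CPM (unstimulated) and 378 CPM (Pam3Cys4) in cells lacking the shRNA, but to 1923 and 6650 CPM in cells that had it. A difference between shRNA states can therefore not be told apart from a difference between the cells used.

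Colony-stimulating factors are secreted proteins that keep myeloid cells alive and make them divide and mature. Csf1 encodes M-CSF, which acts through the receptor tyrosine kinase encoded by Csf1r and is the main survival factor of macrophages. Csf2 encodes GM-CSF, whose receptor joins a private alpha chain (Csf2ra) to a beta chain (Csf2rb) that signals through JAK2 and STAT5. The mouse has another beta chain gene beside it, Csf2rb2, whose product pairs with the interleukin-3 alpha chain. Csf3 encodes G-CSF, the growth factor of neutrophils, which binds the receptor encoded by Csf3r. Macrophages stimulated through Toll-like receptors are a known source of GM-CSF and G-CSF.

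Pam3Cys4 without shRNA went with higher levels of all 3 ligand genes, from near absence for Csf2 and Csf3. With shRNA the pattern split. Csf1 was higher than without shRNA in both states, Csf3 was lower than without shRNA after Pam3Cys4, and Csf2 stayed near absence. Of the 8 genes, 8 had at least 5 CPM in the higher library of the Pam3Cys4 comparison without shRNA, and 5 of them were at least 2-fold higher with an interval excluding 1, with 0 lower. Of all 9555 genes measured there, 7.07% were higher and 6.51% lower by the same rule. Of the members called higher, Csf1, Csf2, Csf3 and Csf3r were at 2.90, 0.0384, 0.0576 and 3.88 CPM in the unstimulated library. They passed the filter only through the stimulated library, where they were high, so their count is a description and not support for a response. With shRNA, 7 were measured, 2 were higher and 0 lower, against 6.3% and 3.53% of all genes. Between shRNA states, 2 of 5 measured were higher with shRNA in unstimulated cells and 0 lower (7% and 4.82% of all genes). After Pam3Cys4, 2 of 8 were higher with shRNA and 3 lower (9% and 5.58% of all genes). The median log2 ratio of the members measured was 1.51, 0.69, 0.71 and -0.20 in these 4 comparisons, beside 0.00, 0.02, 0.02 and 0.05 over all genes. Some called members of the later comparisons also passed the filter only through their higher library. These were Csf3 for Pam3Cys4 with shRNA, Csf1 between shRNA states in unstimulated cells, and Csf2 between them after Pam3Cys4. The libraries are shared between these comparisons, so the counts are not independent of each other.

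**Figure D1:**
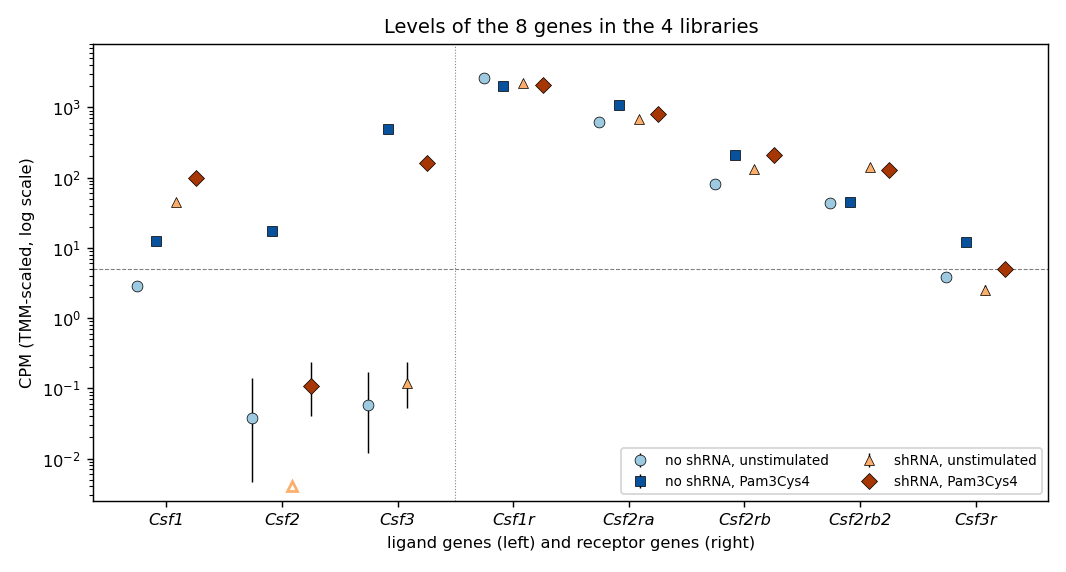
Levels of the 8 genes in the 4 libraries, as CPM after TMM scaling on a log axis, with exact 95% Poisson intervals as bars (often smaller than the symbol), the open triangle for 0 reads of Csf2, and a dashed line at 5 CPM. Csf1 is higher in both libraries with shRNA than in both without, Csf2 stands out only in the library without shRNA given Pam3Cys4, and Csf1r lies near 2000 CPM or above in each.

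Csf1, the M-CSF gene, had 151 reads without shRNA and 632 after Pam3Cys4, and 2957 and 5410 reads with shRNA. Those were 2.90, 12.5, 44.4 and 98.6 CPM. Unstimulated cells with shRNA thus had more Csf1 than stimulated cells without it. Pam3Cys4 went with a 4.32-fold higher level without shRNA (95% interval 3.61 to 5.19) and a 2.22-fold higher level with it (2.12 to 2.32). Dividing the latter ratio by the former gave 0.514 (0.428 to 0.618), just short of the 2-fold rule. Between shRNA states, Csf1 was higher with shRNA by 15.3-fold before (13.0 to 18.2) and 7.88-fold after stimulation (7.25 to 8.57).

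An additive model over the 4 libraries, tested with edgeR's quasi-likelihood test, takes the states of one factor as repeats for the other. It carries no information on how separately grown cultures vary, and it had 1 residual degree of freedom. In that test 22.8% of 9559 genes passed for stimulation and 20.9% for shRNA at a Benjamini-Hochberg adjusted p of 0.05. Csf1 rose with stimulation (log2 1.59, SE 0.26, edgeR adjusted p = 0.0198) and with shRNA (log2 3.43, SE 0.27, edgeR adjusted p = 0.00215).

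The promoter window of Csf1 is shown because Csf1 was higher both with Pam3Cys4 and with shRNA. Whether any motif searched there bears on either difference was not tested. RefSeq entries (250 bases before to 50 after the gene start, build GRCm38.p6) matched 5 of the 8 genes. The counts were made on another build, so these coordinates describe the sequences only. Motifs were searched on both strands: the NF-kB consensus by its usual degenerate form, the core of the interferon-stimulated response element by its name, the STAT element (TTCNNNGAA) and the PU.1 core (GAGGAAGT). Capitals mark a match, and none overlapped another. The Csf1 window lies at chr3:107760420-107760719 on the minus strand.
Csf1: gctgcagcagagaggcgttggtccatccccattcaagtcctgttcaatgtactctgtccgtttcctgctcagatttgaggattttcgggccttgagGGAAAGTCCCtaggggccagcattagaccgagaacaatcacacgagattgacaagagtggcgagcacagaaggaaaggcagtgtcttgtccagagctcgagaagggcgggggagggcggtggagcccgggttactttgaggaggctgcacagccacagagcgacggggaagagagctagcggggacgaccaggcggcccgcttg
It held 1 NF-kB match, at position -154 counted from 0 at the gene start, on the strand opposite to the gene, and 0 matches of the other 3 motifs. Over 32851 windows of 300 bases, 4.51% held an NF-kB match, 3.44% the interferon-stimulated response element core, 8.3% the STAT element and 3.2% the PU.1 core. A match describes letters in the window and does not show that a factor binds.

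Csf2, the GM-CSF gene, had 2 reads without shRNA and 874 after Pam3Cys4, and 0 and 6 reads with shRNA. The library without shRNA given Pam3Cys4 alone stood above 5 CPM, at 17.3 CPM, and the other 3 were at or below 0.109 CPM. Without shRNA it was 451-fold higher after Pam3Cys4 (124 to 3729), a wide interval because 2 reads were counted in unstimulated cells. With shRNA, 6 and 0 reads gave a ratio of 2.43 against a floor of 3 counts and 7.28 against a floor of 1 count, with a lower 95% counting limit of 1.43. After Pam3Cys4, Csf2 was 158-fold lower with shRNA than without (72.4 to 432). In unstimulated cells 2 and 0 reads allow no ratio, and with under 5 CPM in 3 libraries Csf2 did not enter the additive test. In the GENCODE vM21 transcripts 6.39% of the 50-base stretches of Csf2 also lie in Gm12223, and how such reads were counted was not tested.

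Csf3, the G-CSF gene, had 3 reads without shRNA and 24561 after Pam3Cys4, and 8 and 8727 reads with shRNA. Both stimulated libraries were high, at 486 and 159 CPM, and both unstimulated ones at or below 0.120 CPM. The log2 ratio for Pam3Cys4 was 13.04 without shRNA (11.50 to 15.32) and 10.37 with it (9.39 to 11.58). After Pam3Cys4 the level was 3.06-fold lower with shRNA (2.98 to 3.13), while 3 and 8 reads in unstimulated cells gave a ratio of 2.09 with an interval from 0.501 to 12.2. Csf3 rose with stimulation in the additive test (log2 11.57, SE 0.45, edgeR adjusted p = 0.00153). Its shRNA effect lay at the threshold (log2 -1.43, SE 0.35, edgeR adjusted p = 0.0502). That call depended on the setting: the adjusted p ran from 0.000701 to 0.816 over the alternatives, the highest from DESeq2, where the log2 effect was -0.53.

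AU-rich stretches in the 3' UTR, which proteins such as tristetraprolin (Zfp36) bind to speed decay, are a known feature of cytokine mRNAs. They are described here as sequences, and whether they bear on the levels or ratios of the ligand genes was not tested. The pentamer ATTTA was counted in the 3' UTR of 1 transcript a gene (GENCODE vM21, the longest coding sequence) for 20901 genes. Csf2 had 9 in 317 bases, Csf3 had 6 in 669 bases and Csf1 had 4 in 2111 bases. At least as many stood in 7.34%, 15% and 25.2% of all genes, whose 3' UTRs differ in length. The longer form TATTTAT occurred 9 times in Csf2, a number reached by 0.11% of genes, 2 times in Csf3 (9.37%) and 1 time in Csf1 (25.6%). Csf1r had 3 ATTTA and 0 TATTTAT, and the other 4 receptor genes had 0 of either. The 30 bases of each ligand gene with the most ATTTA are given 5' to 3', with ATTTA in capitals.
Csf1: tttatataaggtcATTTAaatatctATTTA
Csf2: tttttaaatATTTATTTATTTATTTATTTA
Csf3: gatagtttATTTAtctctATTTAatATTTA
The site of Csf2 held 5 overlapping copies, that of Csf3 held 3 and that of Csf1 held 2.

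**Figure D2:**
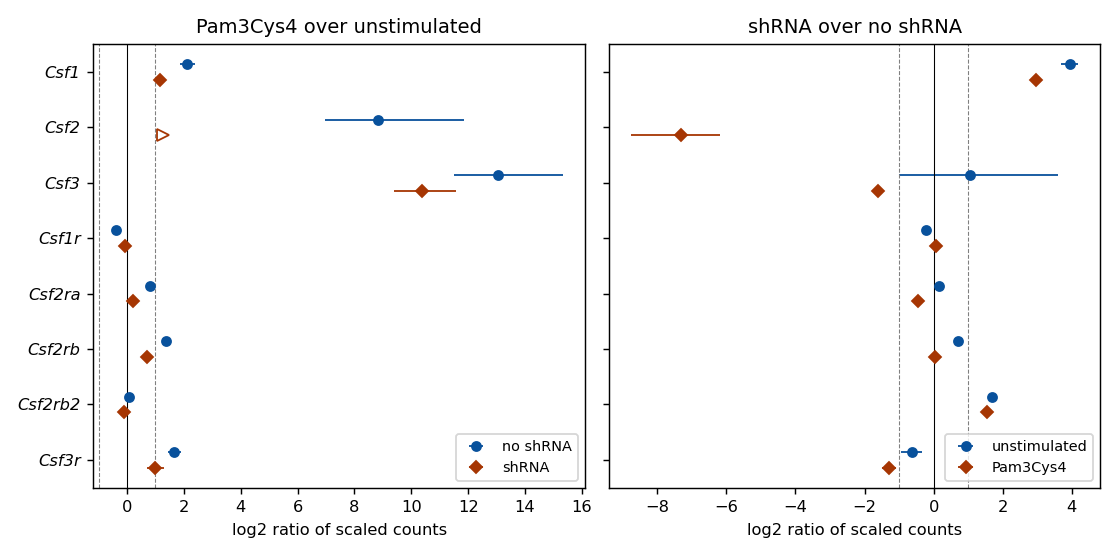
Log2 ratios of scaled counts for the 8 genes, with 95% counting intervals as bars, for Pam3Cys4 over unstimulated (left) and shRNA over no shRNA (right). Dashed lines stand at 2-fold, the open triangle is a ratio to the floor of 3 counts, and Csf2 in unstimulated cells is left out for lack of reads. Csf2 after Pam3Cys4, at -7.31, is the lowest point on the right, and Csf1 and Csf2rb2 lie right of the upper line in both states.

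Receptor genes differed less between libraries than ligand genes. The 5 receptor genes summed to 3342, 3335, 3165 and 3222 CPM in the 4 libraries, whereas the 3 ligand genes summed to 2.99, 516, 44.5 and 258 CPM. Csf1r and Csf2ra made up most of the receptor sum (2594 and 620 CPM in unstimulated cells without shRNA). The sum therefore does not show how Csf2rb, Csf2rb2 and Csf3r differed, which is given gene by gene below. Compared per length (RPKM, CPM per kilobase of exon), unstimulated cells without shRNA had Csf1r at 449, Csf2ra at 216, Csf2rb at 11.1, Csf2rb2 at 9.12 and Csf3r at 1.07 RPKM. After Pam3Cys4 without shRNA, Csf2ra led at 377 RPKM, and Csf1r and Csf3 followed at 344.2 and 344.1 RPKM, closer together than their counting error. With shRNA and Pam3Cys4 the order was Csf1r (360 RPKM), Csf2ra (277), Csf3 (112 RPKM), Csf2rb (29.3) and Csf2rb2 (27.5).

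Csf1r, the M-CSF receptor, had 135208 reads without shRNA and 100392 after Pam3Cys4, and 147024 and 114057 with shRNA. It ranked 14, 34, 27 and 36 by reads among all genes in the same libraries. Its level was 2594, 1987, 2207 and 2078 CPM, highest in unstimulated cells without shRNA. After Pam3Cys4 it was 1.31-fold lower without shRNA (1.30 to 1.32) and 1.06-fold lower with it (1.05 to 1.07). Neither effect passed the edgeR additive test (log2 -0.24, adjusted p = 0.26 for stimulation, and log2 -0.08, adjusted p = 0.691 for shRNA). In the GENCODE transcripts 14.3% of its 50-base stretches also lie in Hmgxb3, a gene that overlaps it, and such reads can be left out as ambiguous.

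Csf2ra, the private chain of the GM-CSF receptor, had 32328 and 54719 reads without shRNA and 45572 and 43721 with it. That was 620, 1083, 684 and 797 CPM, so the stimulated library without shRNA was highest. Pam3Cys4 went with a 1.75-fold higher level without shRNA (1.72 to 1.77) and a 1.16-fold higher level with it (1.15 to 1.18), a ratio of 0.667 (0.654 to 0.68) between the stimulation ratios. The stimulation effect did not pass the edgeR additive test (log2 0.51, SE 0.18, adjusted p = 0.099), but 2 of 4 alternatives passed it, with adjusted p from 0.0238 to 0.145 over all 4.

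The beta chain genes Csf2rb and Csf2rb2 lie next to each other and are close copies, so it matters whether reads can be told apart. Their coding sequences were 95.2% identical over 2631 aligned bases, with a longest identical run of 242 bases. Of 50-base stretches in the transcripts, 12.3% of those of Csf2rb and 18.9% of those of Csf2rb2 occurred in another gene, nearly all in each other. The deposited tables hold a class of reads that did not align uniquely, 27.0 to 29.9% of each table's total, outside the gene counts; how reads shared by these 2 genes were treated was not tested. The ungapped 60-base coding stretch with the most differences is shown, with the 13 differing bases in capitals, from coding base 304 in Csf2rb and 307 in Csf2rb2.
Csf2rb: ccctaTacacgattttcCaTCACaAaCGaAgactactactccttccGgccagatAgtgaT
Csf2rb2: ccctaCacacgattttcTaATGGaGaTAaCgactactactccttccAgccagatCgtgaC

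Csf2rb, the shared signalling chain for GM-CSF, interleukin-3 and interleukin-5, followed stimulation. It had 4215 and 10492 reads without shRNA and 8809 and 11691 with it, or 80.9, 208, 132 and 213 CPM. Both stimulated libraries were above both unstimulated ones and close to each other. Pam3Cys4 went with a 2.57-fold higher level without shRNA (2.48 to 2.66) and a 1.61-fold higher level with it (1.57 to 1.66). Between shRNA states it was 1.64-fold higher with shRNA before stimulation (1.58 to 1.70) and 1.03-fold higher after it, where the interval held 1 (0.999 to 1.05). It rose with stimulation in the edgeR additive test (log2 1.02, SE 0.19, adjusted p = 0.0272) and did not pass for shRNA (log2 0.37, adjusted p = 0.226).

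Csf2rb2, the interleukin-3 beta chain, followed the shRNA state instead. It had 2253 and 2267 reads without shRNA and 9310 and 7145 with it, or 43.2, 44.9, 140 and 130 CPM. Both libraries with shRNA were above both without. The ratio between shRNA states was 3.23 before (3.09 to 3.39) and 2.90 after stimulation (2.77 to 3.04). It rose with shRNA in the edgeR additive test (log2 1.61, SE 0.12, adjusted p = 0.00193), and the stimulation effect was -0.02 on the log2 scale (adjusted p = 0.895). Csf2rb therefore made up 65.2% of the reads of both genes without shRNA (95% Wilson interval 64.0 to 66.3) and 82.2% after Pam3Cys4 (81.6 to 82.9). With shRNA the share was 48.6% (47.9 to 49.4) and 62.1% (61.4 to 62.8). Summed as 1 gene, they would not have counted as 2-fold higher with shRNA after Pam3Cys4.

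**Figure D3:**
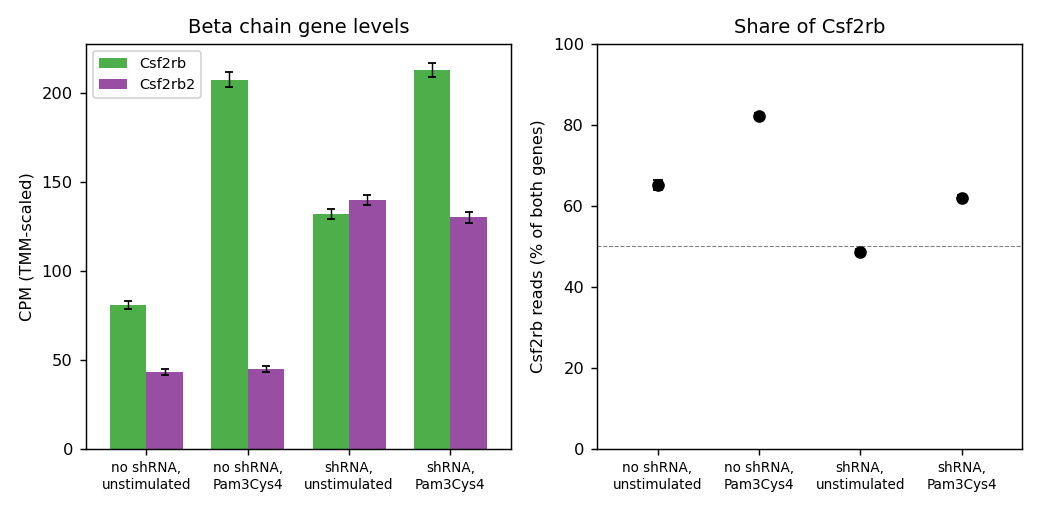
Left, levels of Csf2rb and Csf2rb2 in CPM in the 4 libraries, with 95% Poisson intervals as bars. Right, reads of Csf2rb as a percent of the reads of both genes, with 95% Wilson intervals and a dashed line at equal shares: the share is 82.2% in stimulated cells without shRNA and 48.6% in unstimulated cells with it.

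The promoter window of Csf2rb2 is shown as that of the receptor gene with the largest shRNA ratio. It lies at chr15:78305672-78305971 (GRCm38.p6) on the minus strand.
Csf2rb2: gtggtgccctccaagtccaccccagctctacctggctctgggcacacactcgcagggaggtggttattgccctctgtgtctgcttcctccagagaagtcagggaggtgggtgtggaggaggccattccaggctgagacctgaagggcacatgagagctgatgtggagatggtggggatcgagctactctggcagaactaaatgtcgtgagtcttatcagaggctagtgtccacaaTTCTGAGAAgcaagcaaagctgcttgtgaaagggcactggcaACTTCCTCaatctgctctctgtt
It held the STAT element at position -15, a pattern that its letters match on both strands, and a PU.1 core at position 27 on the opposite strand, with 0 matches of the NF-kB consensus and of the interferon-stimulated response element core. The windows of Csf2ra and Csf3r held 0 matches of the 4 motifs. The RefSeq window of Csf2 also held 0, but it lies wholly upstream of the start of Csf2 in GENCODE vM21 and does not cover the bases next to that start.

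Csf3r, the G-CSF receptor and the least abundant receptor gene, had 202 and 619 reads without shRNA and 167 and 275 with it, or 3.88, 12.3, 2.51 and 5.01 CPM. The stimulated library without shRNA was highest. Pam3Cys4 went with a 3.16-fold higher level without shRNA (2.69 to 3.73) and a 1.999-fold higher level with it (1.64 to 2.44), the latter just short of the 2-fold rule. Between shRNA states it was lower in the cells that had the shRNA, 1.55-fold before stimulation (1.25 to 1.91) and 2.45-fold after it (2.12 to 2.83). It rose with stimulation (log2 1.34, SE 0.23, edgeR adjusted p = 0.0234) and fell with shRNA near the threshold (log2 -0.98, SE 0.23, edgeR adjusted p = 0.0473). It entered that test through a second library at 5.01 CPM, and with library totals as the scaling it was not tested. In the GENCODE transcripts 10.7% of the 50-base stretches of Csf3r also lie in other genes, mostly AC105061.2. How such reads were counted was not tested. Csf3r also marks granulocytes. Of the other granulocyte markers, S100a9, Ly6g, Elane, Ltf, Ngp and Retnlg had 0 reads in all 4 libraries and S100a8 was at or below 0.364 CPM, while Mmp8 was at 0.595, 11.6, 0.105 and 0.492 CPM. Mmp9, the most abundant of the list, went the other way from Csf3r and Mmp8 between shRNA states after Pam3Cys4, at 25.1, 117, 24.9 and 173 CPM (1.48-fold higher with shRNA, 1.43 to 1.53). Camp and S100a8, both at or below 0.510 CPM, were 2.15-fold (1.06 to 4.64) and 3.68-fold higher (1.34 to 12.6). In bulk samples fewer cells of a type and less RNA per cell cannot be told apart.

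In the additive test, 4 of 7 tested members rose with stimulation (Csf1, Csf3, Csf2rb and Csf3r) and 0 fell, against 11.9% and 10.9% of all genes. Csf3 and Csf3r reached 5 CPM only in the stimulated libraries, so they entered the test through the state where they were high. With shRNA, 2 rose (Csf1 and Csf2rb2) and 1 fell (Csf3r), against 12.3% and 8.66% of all genes. Of the 6 members with at least 10 reads in each library, 0 had stimulation ratios that differed 2-fold between shRNA states (1.94% of all genes were larger and 1.64% smaller with shRNA). The ratio of ratios was below 1 in 5 of them, with intervals excluding 1, and 1.23 for Csf1r (1.22 to 1.24). Csf3, with under 10 reads in 2 libraries, had a ratio of 0.157 (0.0416 to 0.591).

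Other ligands of these receptors gave little signal. Il34, an alternative ligand of the CSF1 receptor, was at 0.422, 0.257, 0.0150 and 0.0364 CPM in the 4 libraries, and Il3 and Il5 had 0 reads in each library. Il3ra, the interleukin-3 alpha chain, was the only measured gene of 5 related receptor chains. It was at 58.6, 90.7, 94.1 and 100 CPM and passed the edgeR additive test for neither stimulation (adjusted p = 0.182) nor shRNA (adjusted p = 0.155). Il5ra, Ptprz1 and Kit had 0 reads throughout, and Flt3 was at or below 0.0198 CPM.

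Of 23 tested genes that carry signals from these receptors, 7 rose with stimulation and 0 fell in the additive test, and 5 rose with shRNA and 0 fell. Over all genes tested, 11.9% rose and 10.9% fell with stimulation, and 12.3% rose and 8.66% fell with shRNA. Src, among those that rose with shRNA, reached 5 CPM only in the libraries with shRNA and entered the test through them. Gab2, a docking protein of these receptors, was at 37.5, 99.1, 60.7 and 104 CPM, 2.64-fold and 1.72-fold higher after Pam3Cys4 without and with shRNA. Jak2, the kinase bound to the beta chain, was 1.79-fold and 3.52-fold higher. Src was 22.4-fold higher with shRNA in both unstimulated and stimulated cells (1.29, 3.76, 28.8 and 84.2 CPM), and Syk was 2.996-fold and 3.13-fold higher. Stat5a, which GM-CSF activates, was 1.401-fold and 1.47-fold lower after Pam3Cys4 and did not pass the edgeR test (log2 -0.52, adjusted p = 0.0534).

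Of 15 tested genes that damp these receptors, 8 rose with stimulation and 1 fell (11.9% and 10.9% of all genes). Socs1, among those that rose, reached 5 CPM only in the stimulated libraries. With shRNA 2 rose and 0 fell, near the 12.3% and 8.66% of all genes. Socs3, which blocks the G-CSF receptor, was 13.9-fold higher after Pam3Cys4 without shRNA and 71.8-fold higher with it. Cbl, a ubiquitin ligase of the CSF1 receptor, was 2.21-fold and 1.76-fold higher, and Adam17, a protease that sheds that receptor, 1.84-fold and 1.797-fold. Cblb, a relative of Cbl, was higher with shRNA by 3.64-fold before and 2.51-fold after stimulation. The fallen gene was Adam10, also a protease (log2 -0.71, edgeR adjusted p = 0.0191).

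Most measured genes known to respond to GM-CSF and STAT5 were higher after Pam3Cys4 in both shRNA states. Of 11 measured, 9 were at least 2-fold higher after Pam3Cys4 without shRNA and 0 lower, and of 9 measured with shRNA, 6 were higher and 0 lower. Over all genes 7.07% were higher and 6.51% lower without shRNA, and 6.3% and 3.53% with it. Without shRNA, Cish, Osm, Ccl22 and Itgax reached 5 CPM only in the stimulated library and so were measured through it alone. With shRNA that held for Pim2, Osm and Ccl22. After Pam3Cys4, 1 of 12 was higher with shRNA and 4 lower (9% and 5.58% of all genes). Of these, Cish, Itgax and Ccnd2 reached 5 CPM only in the library without shRNA, and Pparg only in that with shRNA. They were measured through the library where they were high, so these counts are a description. Cish, a STAT5-induced inhibitor, was at 0.595, 60.5, 0.360 and 2.62 CPM in the 4 libraries. It was 102-fold higher after Pam3Cys4 without shRNA and 7.28-fold higher with it. Osm, the oncostatin M gene, was at 3.17 and 60.9 CPM and at 3.89 and 19.4 CPM, and Ccl22, a chemokine gene, at 0.748 and 26.1 CPM and at 0.510 and 13.6 CPM. These 3 were highest in the same library as Csf2, as were Itgax, Mcl1 and, by a small margin (367 against 363 CPM), Bcl2l1. Whether Csf2 bears on the levels of the listed genes was not tested. The other measured genes of the list did not share that order. Pim1, a kinase gene induced by STAT5, was at 5.97, 93.6, 21.9 and 134 CPM. Pim2 and Myc were also highest in stimulated cells with shRNA, at 35.3 and 42.9 CPM. Ccnd1 and Ccnd2 were highest in unstimulated cells without shRNA (1079 and 312 CPM), and Pparg in unstimulated cells with shRNA (25.2 CPM). Ccnd2, the cyclin D2 gene, and Itgax, the CD11c gene, were 98.6-fold and 15.3-fold lower with shRNA after Pam3Cys4, and Pparg, which GM-CSF induces in alveolar macrophages, was 42.1-fold higher. In the additive test 7 of 10 rose with stimulation and 0 fell, and 1 rose (Pparg) and 2 fell (Ccnd2 and Ccl22) with shRNA, against 11.9%, 10.9%, 12.3% and 8.66% of all genes. Osm and Ccl22 entered that test only through the stimulated libraries, where they were high. Pparg entered it only through the libraries with shRNA and Ccnd2 only through those without, again where they were high.

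**Figure D4:**
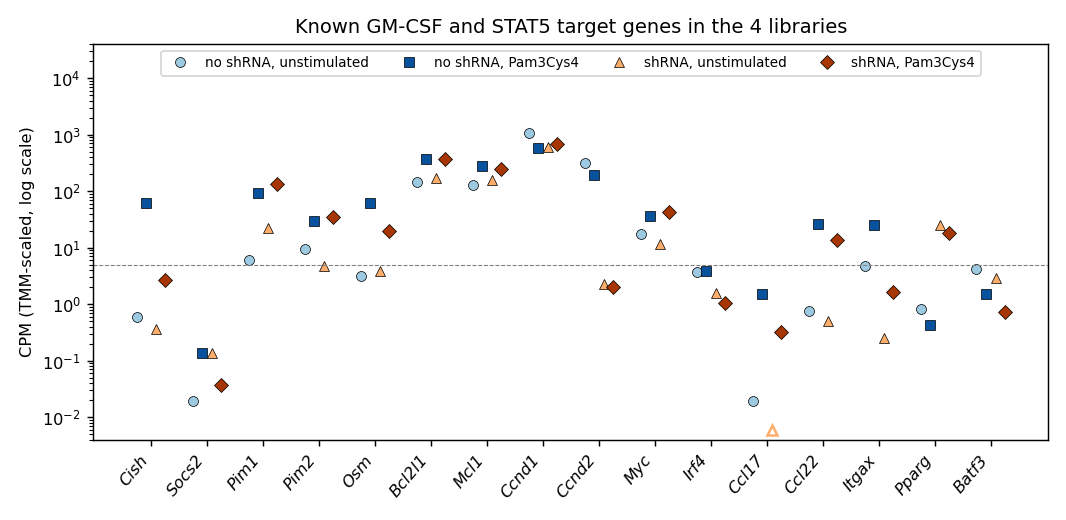
Levels of 16 genes known to respond to GM-CSF or STAT5, in CPM on a log axis, in the 4 libraries, with the open triangle for 0 reads and a dashed line at 5 CPM. Cish, Osm, Ccl22 and Itgax are highest in stimulated cells without shRNA, and Pim1, Pim2 and Myc in stimulated cells with shRNA. Ccnd2 is lower and Pparg higher in both libraries with shRNA.

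Of 14 tested regulators of the Csf1r gene, 6 rose and 2 fell with stimulation (11.9% and 10.9% of all genes), and 4 rose and 5 fell with shRNA (12.3% and 8.66%). Egr2, among those that fell with shRNA, reached 5 CPM only in the libraries without it. Spi1, which encodes PU.1, the main activator of Csf1r, was at 405, 718, 572 and 1199 CPM. Ets2 was 4.85-fold and 7.44-fold higher after Pam3Cys4 without and with shRNA. Egr2, an early gene downstream of M-CSF, was lower with shRNA by 8.97-fold before and 7.08-fold after stimulation, and Mitf was 3.84-fold and 4.41-fold higher. Csf1r itself differed by at most 1.31-fold in any of the 4 comparisons with TMM scaling. With library totals as the scaling, its ratio for Pam3Cys4 without shRNA was 0.677 in place of 0.766.

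Of 13 tested genes of cytokine mRNA decay or its control, 4 rose and 2 fell with stimulation (11.9% and 10.9% of all genes), and 4 rose and 1 fell with shRNA (12.3% and 8.66%). Zc3h12a, the Regnase-1 gene, was 34.1-fold and 26.1-fold higher after Pam3Cys4, and Zfp36, the tristetraprolin gene, 4.10-fold and 5.49-fold. After Pam3Cys4, Zfp36 was at 145 CPM without shRNA and 272 CPM with it (1.87-fold higher), and rose with shRNA in the additive test (log2 0.70, edgeR adjusted p = 0.0354). Arid5a, which stabilizes some cytokine mRNAs, was at 2.19, 25.1, 5.27 and 7.38 CPM in the 4 libraries. Whether these levels bear on Csf2 and Csf3 was not tested.

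Among 16 NF-kB target genes, 13 of 13 tested rose with stimulation (11.9% of all genes), and 1 rose and 1 fell with shRNA (12.3% and 8.66%). Il1a, Il1b, Cxcl2 and Traf1 reached 5 CPM only in the stimulated libraries, so they entered the test through the state where they were high. Among 16 interferon-stimulated genes, 15 of 15 tested rose with shRNA (12.3% of all genes) and 14 rose with stimulation (11.9%). Ifi44 reached 5 CPM only in the libraries with shRNA, where it was high.

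For each member the closest of 9360 other coding genes were found by the Euclidean distance between log2(CPM + 1) profiles over the 4 libraries, each centred on its mean, a description over 4 points. Closest to Csf1 were Parp14 (distance 0.308), Helz2 (0.358) and Ifih1 (0.392), which interferon induces. Closest to Csf3 were Cxcl2 (0.566), Il1a (0.993) and Il1b (1.34). Closest to Csf2 were the matrix protease gene Mmp3 (0.386), Lix1 (0.774) and the myosin gene Myo1d (0.819), and Mmp3 stood at 0.0192, 17.4, 0.0150 and 0.510 CPM.

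**Figure D5:**
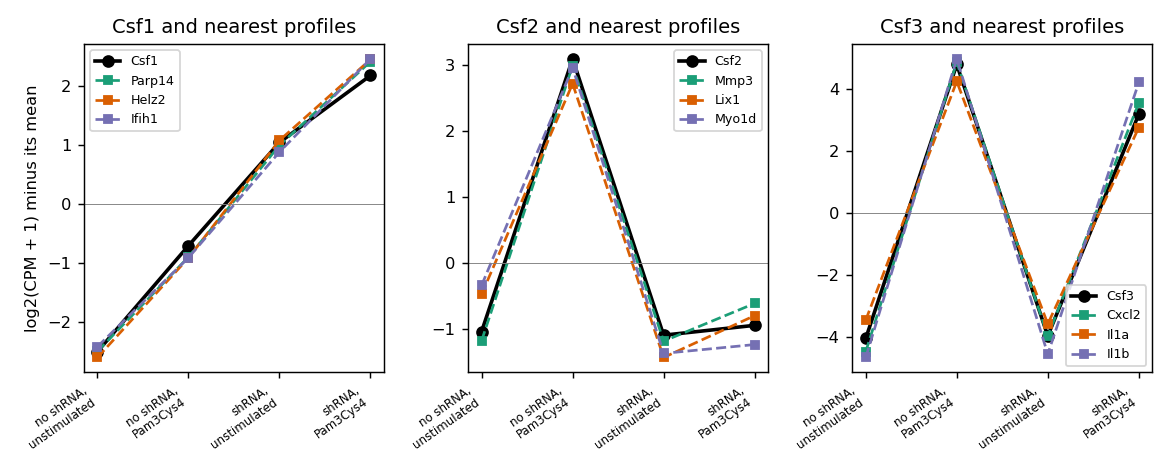
Profiles of the 3 ligand genes (black) and of the 3 coding genes closest to each, as log2(CPM + 1) minus the mean over the 4 libraries. Csf1 rises over the libraries in the order drawn, Csf2 has a single high library, and Csf3 is high in both stimulated libraries.

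Among receptor genes, Csf2rb lay closest to Gab2 (distance 0.0636), followed by Myl6 (0.0926) and the interleukin-10 receptor gene Il10ra (0.101). Csf2rb2 lay closest to Lrfn3 (0.142), Aig1 (0.166) and Cd200r4 (0.179). Closest to Csf2ra were Prag1 (0.0417), Pla2g6 (0.0822) and Fam83h (0.0836), and closest to Csf3r were Orai1 (0.219), Rusc2 (0.232) and Rhof (0.235). Csf1r, whose profile was nearly flat after TMM scaling, lay closest to Kbtbd4 (0.0388), Ndufb8 (0.0434) and Fcho2 (0.0464). Flat profiles have small distances to many genes, so distances are not comparable between members.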

How the data were processed

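The deposited values are read counts per Ensembl gene, 1 library a group. Per the submitters' processing notes, the authors used CASAVA 1.8, TopHat and HTSeq on NCBIM37; the sources used here name no other version, no annotation release and no strand setting. Of all totals in the tables, 32.5 to 34.4% named no gene and stayed out of library sizes. Of 37681 gene IDs, 32642 had a symbol in the table of GENCODE vM21, which also gave exon lengths and transcripts.

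Counts were scaled with TMM factors from edgeR 4.0.16 (R 4.3.3). A ratio has an exact conditional binomial interval at 95% confidence, a gene is measured at 5 CPM in the higher library, and it is called at a ratio of 2 or 0.5 with an interval excluding 1. A count of 0 was set to a floor of 3 counts per library. Ratios of ratios used the delta method. The additive edgeR quasi-likelihood test took genes reaching 5 CPM in 2 or more libraries and adjusted p over all of them (Benjamini-Hochberg). Under both filters, a called gene may have passed only through the libraries where it was high. Alternatives were library totals, DESeq2 1.42.0 size factors and its Wald test, other filters, folds and floors, and both beta chain genes summed. The ratio and test scripts were tested on simulated data. Figures were drawn with matplotlib 3.10.9. Intervals cover counting error only.

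The members, lists and tests were chosen with earlier results of these data known. Named genes were all members, up to 4 genes a list and comparison with the largest ratios, marker lists by count and sum, and the 3 nearest profiles of each member. Stat5a, Adam10, Adam17, Spi1, unmeasured genes such as Il34, and single marker genes fall outside those ranks and were named after their values were seen. So were Bcl2l1, Mcl1, Ccnd1 and Myc.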

Additional observations from a re-analysis of the deposited data

Results flagged for a closer look

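In 4 members the ratio lay on the opposite side of 1 in the other state, with 1 library behind each value. The difference between states was not tested, since each group has 1 library. The stimulation ratio of Csf2rb2 was 1.04 without shRNA, with an interval holding 1 (0.979 to 1.10), and 0.932 with shRNA (0.903 to 0.961). With library totals as the scaling both lay below 1 (0.917 and 0.851). The shRNA ratio of Csf3 was 2.09 in unstimulated cells, from 3 and 8 reads, below the 5 CPM filter and with an interval holding 1. After Pam3Cys4 the shRNA ratio of Csf3 was 0.327. That of Csf1r was 0.851 and 1.05, and with library totals 0.783 and 0.994. That of Csf2ra was 1.10 and 0.735, or 1.02 and 0.699 with library totals.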

How the results depend on the processing

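No paired analysis was possible because each group has 1 library and no label gives a replicate number; the additive test takes the other factor, not a replicate, as its block. With 1 library a group, none could be left out. Of 77 counts of members recomputed under the alternatives, 67 stayed within 1.5 times their value and 10 moved, 7 of them by the fold required alone. At 4-fold the members higher after Pam3Cys4 were 3 without shRNA and 1 with it, those higher with shRNA were 1 before and 1 after stimulation, and those lower with shRNA after Pam3Cys4 1. At 1.5-fold, 4 members were higher after Pam3Cys4 with shRNA, and 3 had stimulation ratios that differed between shRNA states. With Csf2rb and Csf2rb2 summed, 1 member was higher with shRNA after Pam3Cys4. With at least 1 read in each library in place of 10, 1 member (Csf3) had stimulation ratios 2-fold apart. With no filter on low counts, 5 members passed the additive test for shRNA. Among 93 ratios of single members, 22 moved beyond their counting interval, none that counted as 2-fold apart changed direction, and the values nearest 1 (Csf1r and Csf2rb after Pam3Cys4 between shRNA states, and Csf2rb2 after Pam3Cys4 without shRNA) crossed it with library totals (0.994, 0.975 and 0.917). Depth limits Csf2 and Csf3 in unstimulated cells, where 0 to 8 reads were counted.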
